A study of Homo sapiens with 6 samples.

Results

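The genes examined were the metalloproteinases named MMP, ADAM, ADAMTS or ADAMTSL and the TIMPs that inhibit them, taken from an RNA-Seq series of the endometrial cancer (EC) line AN3CA. Members were all rows of the expression table whose symbol begins with MMP, ADAM, ADAMTS or ADAMTSL followed by a digit, or is *TIMP1* to *TIMP4*. This gave 55 of the 17471 listed genes, namely 16 MMP, 17 ADAM, 16 ADAMTS and 3 ADAMTSL genes and 3 TIMPs. *MMP9* and *TIMP4* were not among the rows and were not analysed here. Expression was compared between 3 libraries of AN3CA cells carrying the empty short hairpin vector (shEV, genotype WT in the labels) and 3 libraries of cells carrying a hairpin against *PAX2* (shPAX2, genotype *PAX2* KD). Both groups were transduced with lentivirus and selected with puromycin, so the controls also carry the vector. The study's methods describe an empty vector for this line, although it elsewhere calls the AN3CA control scrambled. The hairpin lowers but does not delete *PAX2*, only 1 hairpin was profiled, and the labels do not say whether the replicates came from separate cultures. The p-values therefore measure the spread between these libraries, which may be technical.

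MMPs are zinc-dependent endopeptidases that cut collagens, laminins and other matrix proteins, and most are made as inactive proenzymes. ADAMs are membrane proteins that release the outer parts of other membrane proteins, such as growth factors and adhesion molecules, while ADAMTS enzymes are secreted and bind the matrix through thrombospondin repeats. ADAMTSL proteins keep those repeats but have no protease domain. TIMPs bind the active site of these enzymes and block it. In endometrium, MMPs and TIMPs are best known for the matrix breakdown of menstruation.

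Levels are given in TPM, which divides a gene's reads by its length and by the library total, so levels of different genes can be compared. Recovered reads ranged from 10730909 to 18221859 per shEV library and from 19422615 to 29405787 per shPAX2 library. The shallowest shPAX2 library held more reads than the deepest shEV library, so depth and group cannot be told apart. The targeted gene *PAX2* averaged 3.47 TPM in shEV and 0.936 TPM in shPAX2, a log2 fold change of -1.47 (SE 0.18, limma adjusted p = 0.000294). The labels call the cells epithelial, but of 6 epithelial markers only *KRT18* exceeded 0.387 TPM. The summed level of the 6 ran from 10.8 to 13.3 TPM in shEV and from 12.1 to 17.8 TPM in shPAX2, against 3750 to 4410 TPM for the mesenchymal filament gene *VIM*. The other mesenchymal markers were split. *ZEB1* ran from 79.4 to 94.1 TPM, whereas *CDH2* was at most 0.0777 TPM and *FN1* ran from 0.131 to 0.827 TPM. Leukocyte markers (2 of 3 listed) summed to 0.835 to 1.52 TPM in shEV and 1.58 to 2.28 TPM in shPAX2, nearly all of it *CD68*, with *PTPRC* at or near 0. Endothelial markers (2 of 3 listed) summed to at most 0.0611 TPM in any library. The fibroblast list (3 of 5 listed) ran from 811 to 858 TPM in shEV and from 362 to 441 TPM in shPAX2, nearly all of it the collagen I gene *COL1A2*, and its part in the results below was not tested. In a bulk library, fewer cells of a type and less RNA per cell cannot be told apart.

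MMP, ADAM, ADAMTS and TIMP genes changed in both directions, and the only ADAMTSL gene tested was higher in shPAX2. Among 28 members with at least 0.5 TPM in at least 3 libraries, 9 were higher in shPAX2 and 9 lower at a limma adjusted p under 0.05, while 10 did not pass. Of all 13163 genes tested, 12.2% were higher and 30.5% lower by the same rule. Past the threshold, defined as an adjusted p under 0.05 and a log2 fold change of at least 1 in either direction, 6 members were higher (*MMP10*, *MMP1*, *MMP24*, *ADAMTSL4*, *ADAMTS3* and *TIMP3*) and 3 were lower (*ADAMTS7*, *ADAMTS2* and *ADAMTS6*), beside 1.43% of all genes higher and 3.11% lower. The 3 libraries of one group did not overlap the 3 of the other for 23 of 28 members, beside 54.9% of all genes. *MMP1*, *MMP10* and *MMP24* reached the filter only through the shPAX2 libraries and so had to differ. Among the other 25 tested members, 6 were higher, 9 were lower and 10 did not pass, with 3 past the threshold in each direction. These counts are a description and no test of the families. The number higher rested on single libraries. It was 3 without shPAX2 replicate 2, 4 without shPAX2 replicate 1 or shPAX2 replicate 3, and 5 without shEV replicate 2 or shEV replicate 3, in part because *MMP1*, *MMP10* and *MMP24* then miss the filter when a shPAX2 library is gone, while 9 or 10 stayed lower. With a filter of 2 libraries it ran from 5, without shEV replicate 3, to 7. The median log2 fold change was -0.20 over the 28 members and -0.10 over all tested genes, and the median absolute change was 0.48 and 0.22. Because TPM are shares of a total, rescaling by the median of ratios moved the median of all genes from -0.10 to -0.00018 and the split of all genes at an adjusted p under 0.05 from 1612 higher and 4017 lower to 2786 higher and 2626 lower. Members then stood at 10 higher and 9 lower. Quantile normalization left 6 members past the threshold higher and 1 lower, with 240 and 293 genes overall against 188 and 410.

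**Figure D1:**
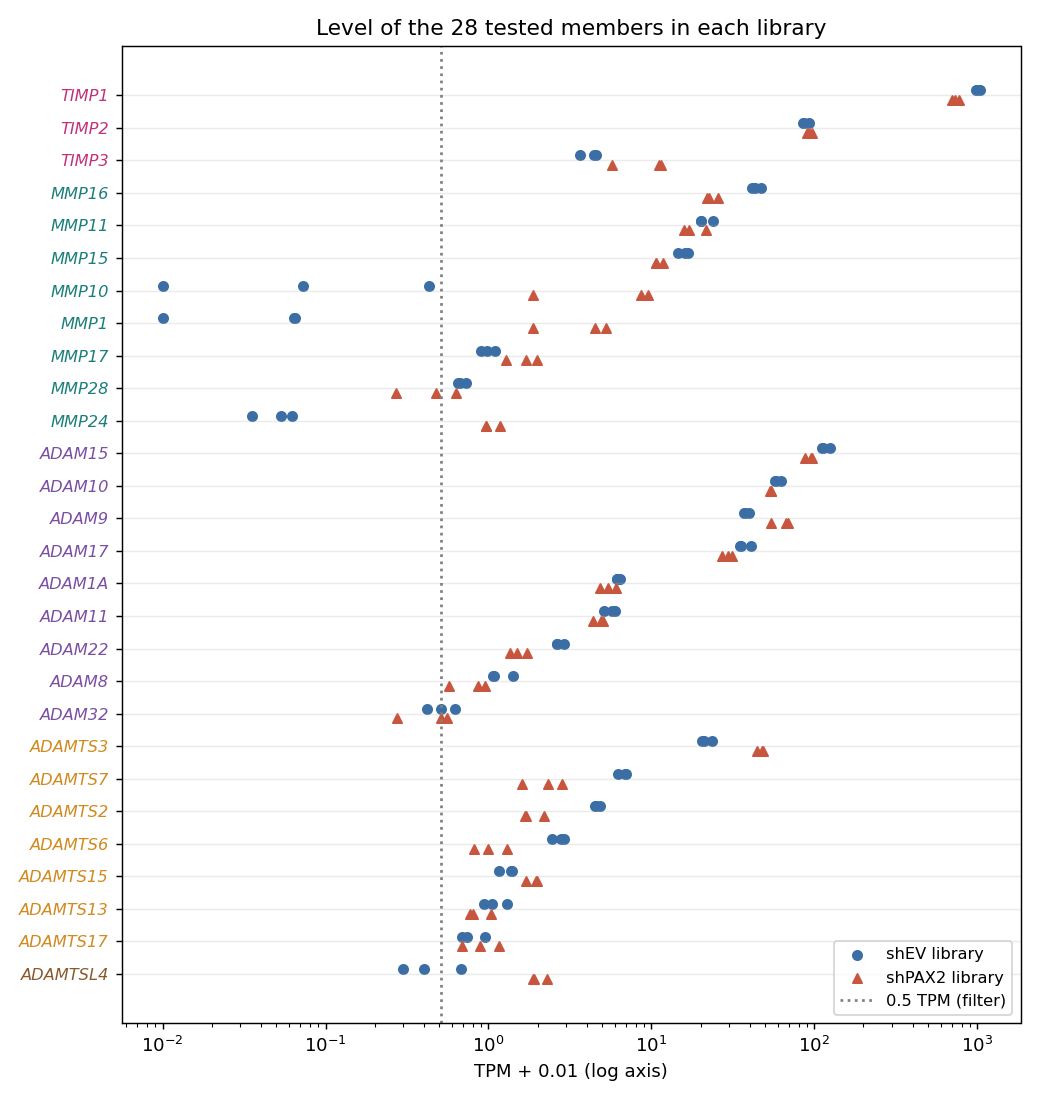
Level of the 28 tested members in each library, as TPM plus 0.01 on a log axis, with blue circles for shEV libraries, red triangles for shPAX2 libraries and a dotted line at the 0.5 TPM filter. *TIMP1* lies highest, and *MMP10*, *MMP1* and *MMP24* are the members whose shEV circles all lie under the filter.

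**Figure D2:**
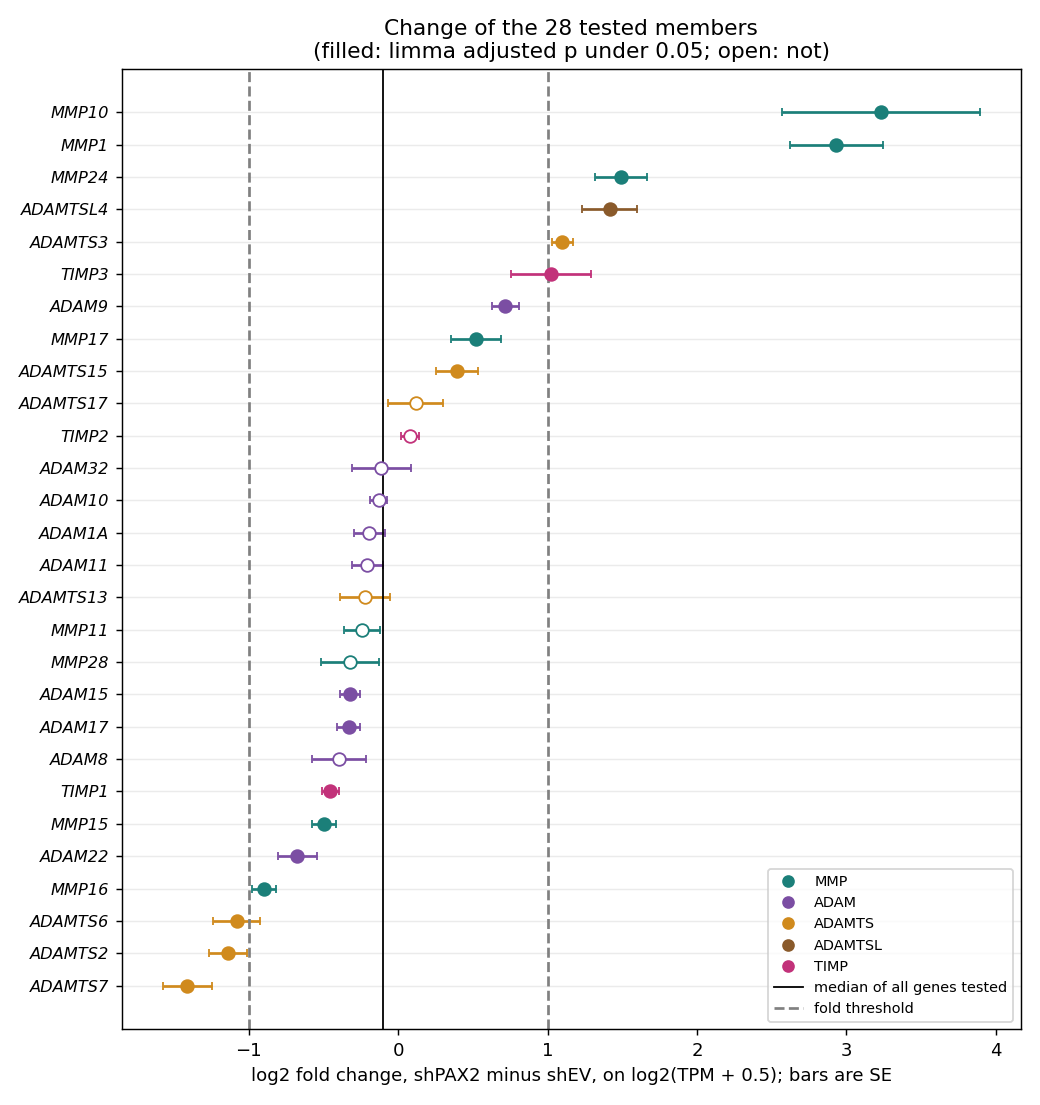
Log2 fold change of each tested member, shPAX2 minus shEV on log2(TPM + 0.5), with SE bars, filled where the limma adjusted p was under 0.05. The solid line marks the median of all tested genes at -0.10, the dashed lines mark the fold threshold, and values run from 3.23 for *MMP10* to -1.41 for *ADAMTS7*.

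The TIMPs were examined first because they act on members of every protease class. *TIMP1*, a secreted inhibitor of most soluble MMPs and of *ADAM10*, was the most abundant member. It measured 980, 1032 and 988 TPM in shEV replicates 1 to 3 and 727, 699 and 768 TPM in shPAX2. All 3 shPAX2 libraries lay below all 3 shEV libraries, and the group means were 1000 ± 27.9 and 731 ± 34.9 TPM (SD, n = 3 libraries per group here and throughout). The log2 fold change was -0.45 (SE 0.06, limma adjusted p = 0.000442). *TIMP2*, which inhibits MMPs and also takes part in the activation of pro-MMP2 at the cell surface, averaged 88.4 ± 4.21 TPM in shEV and 93.4 ± 3.30 TPM in shPAX2. Its groups overlapped, with a log2 fold change of 0.08 (SE 0.06, limma adjusted p = 0.319), although under median-of-ratios scaling it passed at 0.18 (adjusted p = 0.0303).

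*TIMP3*, the matrix-bound inhibitor that also blocks *ADAM17* and several ADAMTS enzymes, moved the other way from *TIMP1*. It measured 4.55, 3.61 and 4.44 TPM in shEV and 5.71, 11.5 and 11.1 TPM in shPAX2 replicates 1 to 3. The shPAX2 libraries were all higher, but replicate 1 lay close to shEV and replicates 2 and 3 well above it. The log2 fold change was 1.03 (SE 0.27, limma adjusted p = 0.0249). The call was lost when any library other than shPAX2 replicate 1 was left out (log2 fold changes of 0.86 to 1.08, limma adjusted p = 0.0593 to 0.0789), and without shPAX2 replicate 1 it was 1.33 (adjusted p = 0.000113). The call was also lost with voom on the recovered reads (1.10, voom adjusted p = 0.0798). It was kept in 11 of 23 alternative runs. *TIMP1* exceeded *TIMP3* by 215, 286 and 223 times in shEV and by 127, 60.9 and 69.0 times in shPAX2. Both genes lie inside a synapsin gene on the opposite strand, *TIMP1* within *SYN1* on chromosome X (47441807 to 47446188, plus strand, GRCh37) and *TIMP3* within *SYN3* on chromosome 22 (33197691 to 33259028, plus strand). *SYN1* reached at most 0.162 TPM in any library and *SYN3* ran from 0.533 to 0.977 TPM, with a log2 fold change of 0.22 (SE 0.17, limma adjusted p = 0.333).

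The largest fold changes among the MMPs were those of *MMP10* and *MMP1*, neighbours in the MMP cluster of chromosome 11. *MMP10* encodes stromelysin-2, which cuts proteoglycans, fibronectin and laminin and can activate other pro-MMPs. It measured 0.424, 0 and 0.0630 TPM in shEV (4, 0 and 1 reads) and 1.86, 9.57 and 8.56 TPM in shPAX2 replicates 1 to 3 (50, 227 and 147 reads). All shPAX2 libraries were higher, with replicate 1 at the bottom of its group. Reads pooled over the libraries and scaled by depth were 51.1 times higher in shPAX2 (95% interval 21.7 to 158, exact binomial, counting error only). The log2 fold change on log2(TPM + 0.5), a scale that understates low genes, was 3.23 (SE 0.66), and voom on the recovered reads gave 5.66. *MMP10* reached the filter only through the shPAX2 libraries, so this change is a description with no test. Its call was also lost without shEV replicate 2, without shEV replicate 3 and with voom.

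*MMP1* encodes interstitial collagenase, which cuts the triple helix of fibrillar collagens. It measured 0, 0.0551 and 0.0539 TPM in shEV (0, 1 and 1 reads) and 1.88, 4.48 and 5.29 TPM in shPAX2 (59, 124 and 106 reads). No shPAX2 library approached shEV, and replicate 1 was again the lowest. The pooled ratio was 87.1 (95% interval 23.9 to 723), and the log2 fold change was 2.93 (SE 0.31) or 5.64 with voom. *MMP1* likewise reached the filter only through the shPAX2 libraries, so this change is a description with no test. On GRCh37, *MMP10* occupies chromosome 11 from 102641233 to 102651359 and *MMP1* from 102660132 to 102668891, both on the minus strand. The pseudogene *WTAPP1* overlaps both on the plus strand and held 2, 6 and 0 reads in shEV and 5, 6 and 9 reads in shPAX2. Of the tested genes around the cluster, *BIRC2* had a log2 fold change of -0.28 (limma adjusted p = 0.0279), *TMEM123* of 0.06 (adjusted p = 0.603), *DCUN1D5* of 0.03 (adjusted p = 0.758) and *DYNC2H1* of -0.22 (adjusted p = 0.0703). *MMP7*, the matrilysin gene of the same cluster, was seen only in shEV replicate 3, at 0.0990 TPM. It was recovered as 1 read, the fewest the recovery can return.

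*MMP24*, a membrane-type MMP best known from neurons, measured 0.0430, 0.0522 and 0.0256 TPM in shEV (1, 2 and 1 reads) and 0.950, 0.959 and 1.16 TPM in shPAX2 (63, 56 and 49 reads). Unlike *MMP10* and *MMP1*, its 3 shPAX2 libraries lay close together. The pooled ratio was 25.3 (95% interval 9.71 to 94.0), and the log2 fold change was 1.49 (SE 0.17). It depended on the constant added to TPM, from 0.96 with 1 TPM to 3.0 with 0.1 TPM, and was 4.27 with voom. *MMP24* too reached the filter only through the shPAX2 libraries, so this change is a description with no test.

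The members near 0 in one group, and *TIMP3*, are shown with the sequence upstream of their start sites. The set of RefSeq promoters used here holds a window, 250 bases before to 50 after the start on GRCh38.p14, for 33 of 55 members. *MMP1* and 21 others have no entry in this set. The 250 bases before the start are printed 5′ to 3′ for *MMP10* (chr11:102780629-102780878, minus strand), *MMP24* (chr20:35226440-35226689, plus strand), *ADAM23* (chr2:206443282-206443531, plus strand) and *TIMP3* (chr22:32801455-32801704, plus strand). Capitals mark CpG pairs and the matches to 2 motifs, TGANTCA, the core bound by the AP-1 factors with its central base left free, and TATAAA, the TATA box. Both strands were searched over the 300 bases. With its central base free, TGANTCA is looser than the AP-1 core itself, so a match need not be an AP-1 site. Binding was not tested.
MMP10: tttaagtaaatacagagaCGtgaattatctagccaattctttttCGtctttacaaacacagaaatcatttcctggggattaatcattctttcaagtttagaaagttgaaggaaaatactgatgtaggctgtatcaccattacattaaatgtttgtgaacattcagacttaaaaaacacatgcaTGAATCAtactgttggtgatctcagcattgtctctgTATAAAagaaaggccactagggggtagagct
MMP24: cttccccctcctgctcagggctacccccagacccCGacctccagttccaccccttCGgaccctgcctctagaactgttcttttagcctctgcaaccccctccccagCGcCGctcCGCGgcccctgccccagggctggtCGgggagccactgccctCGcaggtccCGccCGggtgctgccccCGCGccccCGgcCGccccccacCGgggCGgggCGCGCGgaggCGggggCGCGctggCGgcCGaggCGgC
ADAM23: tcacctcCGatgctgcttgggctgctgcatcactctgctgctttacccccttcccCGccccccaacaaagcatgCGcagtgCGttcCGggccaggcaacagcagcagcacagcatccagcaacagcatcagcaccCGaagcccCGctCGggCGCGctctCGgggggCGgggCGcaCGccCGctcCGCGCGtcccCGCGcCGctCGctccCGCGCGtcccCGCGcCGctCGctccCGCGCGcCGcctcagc
TIMP3: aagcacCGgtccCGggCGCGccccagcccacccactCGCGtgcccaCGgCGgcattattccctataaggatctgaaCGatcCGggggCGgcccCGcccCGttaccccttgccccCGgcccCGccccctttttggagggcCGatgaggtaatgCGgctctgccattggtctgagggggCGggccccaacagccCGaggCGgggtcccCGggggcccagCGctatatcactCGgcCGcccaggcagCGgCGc
In *MMP10* the letters TGAATCA begin at position -67 and TATAAA at position -31, counted from the start site. *MMP10* was 1 of 2 members with TGANTCA, the other being *MMP7*, out of 33, and 7.71% of all 35116 promoter windows hold it. TATAAA was found in 5 of 33 members (*MMP21*, *MMP7*, *MMP10*, *ADAM21* and *ADAMTS10*) and in 11.5% of all windows. The *MMP10* window has 2 CpG pairs, whereas *MMP24* has 37, *ADAM23* has 41 and *TIMP3* has 31, and the median of all windows is 14. The members that were near 0 in one group thus had both CpG-poor and CpG-rich windows.

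**Figure D3:**
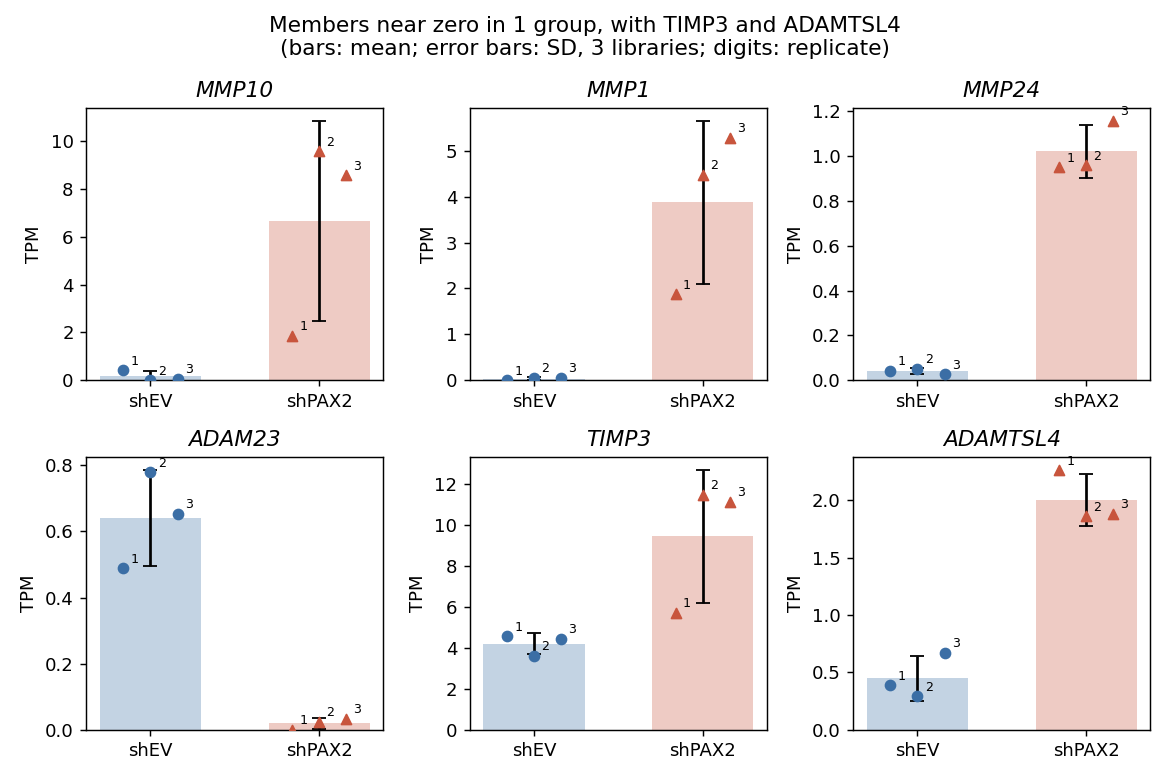
TPM of *MMP10*, *MMP1*, *MMP24*, *ADAM23*, *TIMP3* and *ADAMTSL4* in each library, with blue circles for shEV, red triangles for shPAX2, bars for the mean, error bars for the SD over 3 libraries and digits for the replicate. *MMP10*, *MMP1* and *TIMP3* have shPAX2 replicate 1 below replicates 2 and 3, at 1.86, 1.88 and 5.71 TPM, and *ADAM23* is at or under 0.0336 TPM in all 3 shPAX2 libraries.

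The position of shPAX2 replicate 1 was then compared over all genes. It lay at least 1.5-fold above or below both other shPAX2 libraries for 3 of 28 members (*MMP10*, *MMP1* and *TIMP3*) and for 1.84% of all tested genes. For the other libraries this share ran from 0.957% to 2.42%. *THBS1*, the matrix glycoprotein thrombospondin-1, showed the same order, at 30.3, 19.8 and 16.3 TPM in shEV and 37.9, 139 and 146 TPM in shPAX2. Its log2 fold change of 2.07 (SE 0.64) missed the threshold with all libraries (limma adjusted p = 0.0603) and passed without shPAX2 replicate 1 at 2.71 (adjusted p = 0.00559) and under median-of-ratios scaling at 2.18 (adjusted p = 0.0488).

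The abundant MMPs of these cells were membrane-type enzymes and *MMP11*, and none of them rose. *MMP16*, a transmembrane MMP, measured 42.9, 41.5 and 47.0 TPM in shEV and 25.6, 22.4 and 22.0 TPM in shPAX2. The groups were well apart, and the log2 fold change was -0.90 (SE 0.08, limma adjusted p = 4.61e-05), just short of the fold threshold. *MMP15*, another transmembrane MMP, fell from 15.8 ± 1.12 to 11.0 ± 0.668 TPM, a log2 fold change of -0.50 (SE 0.08, limma adjusted p = 0.00136). *MMP11*, a secreted enzyme that furin activates inside the cell, averaged 21.4 ± 2.17 and 18.1 ± 3.03 TPM, and its groups overlapped (log2 fold change -0.24, SE 0.12, limma adjusted p = 0.140). Without shPAX2 replicate 1 it passed at -0.37 (adjusted p = 0.0148). *MMP17*, which is held to the membrane by a lipid anchor, averaged 0.981 TPM in shEV and 1.64 TPM in shPAX2 (log2 fold change 0.52, SE 0.17, limma adjusted p = 0.0319). Its call was lost without any 1 of shEV replicate 2, shEV replicate 3, shPAX2 replicate 1 and shPAX2 replicate 2 (adjusted p = 0.0756 to 0.145). *MMP28* had a log2 fold change of -0.32 (SE 0.20, limma adjusted p = 0.213).

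*MMP2*, the gelatinase, and *MMP14*, the membrane-type enzyme that activates it, were under the filter. *MMP2* averaged 0.248 TPM in shEV and 0.107 TPM in shPAX2, from 23 and 15 reads over the 3 libraries, and *MMP14* averaged 0.267 and 0.254 TPM, from 24 and 35 reads. Both genes had overlapping groups. The pooled ratio of shPAX2 to shEV was 0.393 (95% interval 0.191 to 0.787) for *MMP2* and 0.879 (95% interval 0.508 to 1.55) for *MMP14*. These intervals cover counting error only. *MMP2* had 4, 4 and 15 reads in shEV replicates 1 to 3, most of them in replicate 3, and 3, 7 and 5 in shPAX2.

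Among the ADAMs, the best-known sheddases stayed near their control levels or fell moderately, and *ADAM9* rose. *ADAM9*, a widely expressed membrane protease, measured 39.5, 37.5 and 37.05 TPM in shEV and 54.1, 66.8 and 68.7 TPM in shPAX2. Every shPAX2 library was above every shEV library, and the log2 fold change was 0.72 (SE 0.09, limma adjusted p = 0.000352). *TM2D2* overlaps *ADAM9* on the opposite strand and had a log2 fold change of 0.23 (SE 0.07, limma adjusted p = 0.0243). *ADAM17*, which releases TNF and several EGF receptor ligands, measured 35.0, 35.2 and 40.6 TPM in shEV and 27.2, 29.4 and 31.03 TPM in shPAX2, a log2 fold change of -0.33 (SE 0.08, limma adjusted p = 0.00902). *ADAM10*, which cleaves Notch receptors and *APP*, averaged 59.2 ± 3.06 and 54.1 ± 0.543 TPM. Its groups did not overlap, but its log2 fold change of -0.13 (SE 0.06, limma adjusted p = 0.101) did not pass and was -0.02 under median-of-ratios scaling. *ADAM15*, the most abundant ADAM, fell from 116 ± 7.30 to 92.8 ± 5.18 TPM (log2 fold change -0.32, SE 0.07, limma adjusted p = 0.00539).

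*ADAM9* and *ADAM17* were about equal in shEV, with ratios of 1.13, 1.07 and 0.912 of the former to the latter, and *ADAM9* was the higher gene in shPAX2, with ratios of 1.99, 2.27 and 2.22. The groups of neither gene overlapped and the genes moved in opposite directions, so these ratios had to separate and give no test. The ADAMs without an active protease were lower or did not pass. *ADAM22*, a receptor for the secreted protein LGI1, fell from 2.71 ± 0.159 to 1.52 ± 0.188 TPM (log2 fold change -0.67, SE 0.13, limma adjusted p = 0.00353). *ADAM11*, a relative of *ADAM22*, had a log2 fold change of -0.21 (limma adjusted p = 0.138), which became 0.03 under quantile normalization. *ADAM1A*, a pseudogene in humans, had -0.19 (adjusted p = 0.161) and 0.04 under that normalization. *ADAM32*, also without an active protease (-0.11, adjusted p = 0.681), and *ADAM8*, whose protease is reported active (-0.39, adjusted p = 0.108), did not pass.

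*ADAM23*, the relative of *ADAM22* that also binds LGI1, was too low for the filter but had a clear difference in reads. It measured 0.489, 0.779 and 0.654 TPM in shEV (8, 21 and 18 reads) and 0, 0.0243 and 0.0336 TPM in shPAX2 (0, 1 and 1 reads), although the shPAX2 libraries were deeper. The pooled ratio was 39.0-fold lower in shPAX2 (95% interval 10.2 to 331). It reached 0.5 TPM in 2 shEV libraries and in no shPAX2 library, so a filter of 2 libraries lets it in only through the group where it is high, and the log2 fold change of -1.13 under that filter is a description with no test.

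The ADAMTS procollagen N-proteinases, which remove the amino-terminal propeptides of fibrillar procollagens, moved in opposite directions. *ADAMTS3*, which also activates the lymphatic growth factor VEGFC, measured 23.5, 21.0 and 20.4 TPM in shEV and 44.6, 47.3 and 48.4 TPM in shPAX2. The groups were far apart, and the log2 fold change was 1.10 (SE 0.07, limma adjusted p = 8.81e-06). *ADAMTS2*, whose loss causes the dermatosparaxis type of Ehlers-Danlos syndrome, measured 4.80, 4.51 and 4.59 TPM in shEV and 2.19, 1.68 and 1.67 TPM in shPAX2, a log2 fold change of -1.14 (SE 0.13, limma adjusted p = 0.000184). This fell short of the fold threshold under quantile normalization (-0.88) and with 1 TPM added (-0.99). *ADAMTS3* stood at 4.89, 4.66 and 4.45 times *ADAMTS2* in shEV and at 20.4, 28.2 and 29.1 times in shPAX2. This gap follows from the opposite moves of the genes and is no separate result. The third gene of this kind, *ADAMTS14*, had at most 7 reads in a library. *COL1A2*, which encodes a procollagen chain, measured 855, 809 and 845 TPM in shEV and 439, 370 and 360 TPM in shPAX2. The other collagen I gene, *COL1A1*, averaged only 1.02 TPM in shEV and 0.89 TPM in shPAX2. Its groups overlapped (log2 fold change -0.11, SE 0.21, limma adjusted p = 0.717).

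*ADAMTS7*, an enzyme that cleaves cartilage oligomeric matrix protein, measured 6.92, 6.86 and 6.21 TPM in shEV and 2.83, 2.31 and 1.59 TPM in shPAX2. It had the largest fall of the tested members, a log2 fold change of -1.41 (SE 0.17, limma adjusted p = 0.00025). *MORF4L1* overlaps it on the opposite strand and had a log2 fold change of -0.54 (SE 0.06, limma adjusted p = 0.00026). *ADAMTS6* measured 2.77, 2.44 and 2.88 TPM in shEV and 1.29, 0.980 and 0.804 TPM in shPAX2, a log2 fold change of -1.08 (SE 0.16, limma adjusted p = 0.000795). Its adjusted p stayed under 0.05 in every alternative run, but it fell short of the fold threshold without shPAX2 replicate 3 (-0.97, adjusted p = 0.00258), under median-of-ratios scaling (-0.998), under quantile normalization (-0.82) and with 1 TPM added (-0.87). *ADAMTS15*, an aggrecan- and versican-cutting enzyme, was the only tested member of its 6-gene group. It averaged 1.30 TPM in shEV and 1.86 TPM in shPAX2, and its call at a log2 fold change of 0.39 (SE 0.14, limma adjusted p = 0.0463) was lost whichever of the 6 libraries was left out (adjusted p = 0.0674 to 0.152). *ADAMTS13*, which cleaves von Willebrand factor, had -0.22 (adjusted p = 0.318) and *ADAMTS17* had 0.12 (adjusted p = 0.634).

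*ADAMTSL4*, a fibrillin-binding protein whose loss displaces the lens of the eye, was the only ADAMTSL gene tested. It measured 0.390, 0.290 and 0.670 TPM in shEV (9, 11 and 26 reads) and 2.27, 1.86 and 1.88 TPM in shPAX2 (149, 108 and 79 reads). Its lowest shPAX2 library was well above its highest shEV library, and the log2 fold change was 1.42 (SE 0.19, limma adjusted p = 0.000468). With voom the estimate was 2.20. *MCL1*, which overlaps it on the opposite strand, had a log2 fold change of -0.31 (SE 0.06, limma adjusted p = 0.0032).

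The other 27 members did not reach the filter, at most 0.779 TPM and 21 reads in any library. Among them 16 had 10 recovered reads or fewer over all 6 libraries, and 15 never exceeded 3 recovered reads in a library, where recovered reads are a minimum. The aggrecanase genes *ADAMTS1*, *ADAMTS4*, *ADAMTS5*, *ADAMTS8* and *ADAMTS9* all fell in the latter group. Besides *ADAM23*, non-overlapping groups were seen for *MMP25*, *ADAM21* and *ADAM19*, which are named here because of their values. That is 4 of 27 members, beside 54.9% of all tested genes. The share among all genes under the filter is not given here. *MMP25*, a lipid-anchored MMP, had 31 reads over the shEV and 16 over the shPAX2 libraries, a pooled ratio 3.21-fold lower in shPAX2 (95% interval 1.71 to 6.29). *ADAM21* had 15 and 7 reads (3.55-fold lower, 1.36 to 10.3), and *ADAM19* had 10 reads and 1 read (16.6-fold lower, 2.36 to 720). Fitted with no filter over all 17471 genes, 3 of these 27 members (*ADAM23*, *MMP25* and *ADAM21*) had a limma adjusted p under 0.05, all lower. By that fit 1524 of all genes were higher and 3804 lower. As these members were picked by their values, this is a description with no test.

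The summed level of the members was mostly *TIMP1*. The TIMPs summed to 1093 ± 26.4 TPM in shEV and 834 ± 38.6 TPM in shPAX2, and *TIMP1* alone was 67.4% of the level of all 55 members in shEV and 60.4% in shPAX2. ADAMs summed to 268 ± 6.97 and 253 ± 7.39 TPM, with groups that touched, and *ADAM15* was 43.4% of the sum in shEV and 36.8% in shPAX2. MMPs summed to 84.0 ± 3.32 and 66.7 ± 1.23 TPM, and the share of *MMP16* in it was 52.2% and 35.0%. ADAMTS genes summed to 39.0 ± 2.07 and 55.7 ± 0.878 TPM, with *ADAMTS3* at 55.4% and 84.0% of the sum. The ratio of the TIMP sum to the sum of the 3 protease families was 2.71, 2.93 and 2.75 in shEV and 2.25, 2.08 and 2.34 in shPAX2. An exact two-sided permutation test of this log ratio gave p = 0.1, the smallest that 3 against 3 libraries allow. It therefore cannot decide whether the ratio differs. *TIMP1* was 91.5% of the TIMP sum in shEV and 87.7% in shPAX2. The ratio thus largely follows the fall of *TIMP1* and is no separate result. These are RNA levels, and neither protein nor enzyme activity was measured here.

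**Figure D4:**
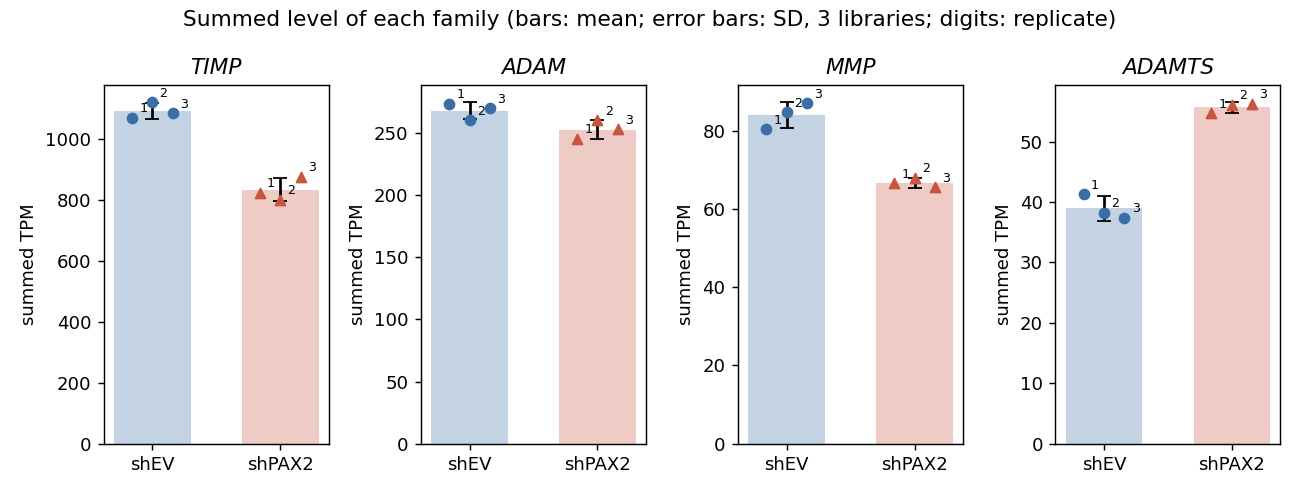
Summed TPM of the TIMP, ADAM, MMP and ADAMTS genes, with points for the 3 libraries of each group, bars for the mean, error bars for the SD and digits for the replicate. The ADAMTS sum is higher in all 3 shPAX2 libraries, the TIMP and MMP sums are lower in all 3, and the ADAM sums of the groups meet at 260.1 TPM.

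Genes that act on metalloproteinases or are acted on by them were taken from lists of 64 genes, of which 53 were listed and 30 tested. At an adjusted p under 0.05, 5 were higher and 11 lower, or 53.3% in all beside 42.8% of all tested genes, and under median-of-ratios scaling the split was 9 higher and 8 lower. Without shPAX2 replicate 2 it was 3 higher and 10 lower, and without shEV replicate 2 it was 4 higher and 7 lower. The counts include *L1CAM* (higher) and *PCOLCE2* (lower). Both reached the filter only through the group where they were high and so had to differ. Past the threshold were 5 genes, *PCOLCE2* among them, or 16.7% beside 4.54% of all tested genes. *PCSK5*, a proprotein convertase of the kind that activates proenzymes, measured 4.13, 3.36 and 3.33 TPM in shEV and 15.3, 14.98 and 16.04 TPM in shPAX2, a log2 fold change of 1.96 (SE 0.10, limma adjusted p = 1.87e-06). *FURIN*, the best-known convertase, had a log2 fold change of 0.23 (SE 0.06, limma adjusted p = 0.0195), a call that was lost without any 1 of shEV replicate 2, shEV replicate 3 and shPAX2 replicate 2 (highest adjusted p = 0.0784). *SERPINE2*, a secreted inhibitor of thrombin and plasminogen activators, measured 24.1, 22.6 and 28.4 TPM in shEV and 5.53, 3.46 and 3.19 TPM in shPAX2, a log2 fold change of -2.52 (SE 0.19, limma adjusted p = 0.000122). The plasminogen activators *PLAU* and *PLAT* and the receptor *PLAUR* did not pass (adjusted p = 0.0652 to 0.609), although *PLAUR* passed as higher under median-of-ratios scaling (0.57, limma adjusted p = 0.0404) and quantile normalization (0.74, adjusted p = 0.02).

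Of 6 tested genes in the list of related metalloproteinases and their enhancers, 2 were higher, 2 were lower and 2 did not pass. Of all tested genes, 12.2% were higher and 30.5% lower. *BMP1*, the metalloproteinase that removes the carboxy-terminal propeptides, fell from 19.4 to 13.2 TPM (log2 fold change -0.53, SE 0.07, limma adjusted p = 0.000541). *PCOLCE*, which enhances *BMP1*, measured 6.55, 6.15 and 6.29 TPM in shEV and 17.3, 13.6 and 13.7 TPM in shPAX2 (log2 fold change 1.16, SE 0.10, limma adjusted p = 5.23e-05). *PCOLCE2*, its relative, had 64 reads over the shEV libraries and 0 over the shPAX2 libraries, at least 35.4-fold lower when the floor is set at 3 reads over the group. *PCOLCE2* reached the filter only through the shEV libraries, so its fall is a description with no test. *TLL2*, a relative of *BMP1*, did not pass (log2 fold change -0.32, SE 0.18, limma adjusted p = 0.174). *PCOLCE* stood at 0.350, 0.297 and 0.336 times *BMP1* in shEV and at 1.24, 1.05 and 1.06 times in shPAX2, which follows from their opposite moves.

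Of 6 tested cofactors of *ADAM10* and *ADAM17*, 4 were lower and none higher at an adjusted p under 0.05, beside 30.5% of all genes lower. The count depended on the scaling, with 2 lower under median-of-ratios scaling (*RHBDF2* and *TSPAN14*) and only *TSPAN14* under quantile normalization. *RHBDF2* and *RHBDF1*, the iRhoms that carry *ADAM17* to the cell surface, had log2 fold changes of -0.50 (SE 0.11, limma adjusted p = 0.00532) and -0.26 (SE 0.08, adjusted p = 0.0313). *TSPAN14* and *TSPAN17*, tetraspanins that partner *ADAM10*, had -0.35 (SE 0.07, adjusted p = 0.00434) and -0.22 (SE 0.07, adjusted p = 0.0293). *RHBDF1* lost its call in 4 of 6 analyses that left out 1 library (without replicate 1 or 2 of shEV, or replicate 1 or 3 of shPAX2, highest adjusted p = 0.0957), and *TSPAN17* in 3 (without shPAX2 replicate 3 or either of shEV replicates 1 and 2, highest adjusted p = 0.103).

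Of the inhibitors other than TIMPs, *RECK*, a membrane-anchored MMP inhibitor, had a log2 fold change of -0.39 (SE 0.14, limma adjusted p = 0.0491). Its call was kept only when shEV replicate 1 was left out (adjusted p = 0.0234), with 0.135 the highest value without another library, and it was lost under median-of-ratios scaling (-0.29, adjusted p = 0.122). Of the substrates, *LTBP1*, which anchors latent TGF-β in the matrix, measured 3.90, 2.85 and 2.70 TPM in shEV and 0.556, 0.175 and 0.145 TPM in shPAX2, a log2 fold change of -2.23 (SE 0.22, limma adjusted p = 0.000105) or -3.49 with voom. The microfibril gene *FBN1* fell by 0.56 on the log2 scale (SE 0.06, limma adjusted p = 0.000118) and *APP* by 0.37 (SE 0.06, adjusted p = 0.000949). *L1CAM*, a cell adhesion molecule that ADAMs release, had 13 reads over the shEV libraries and 136 over the shPAX2 libraries. It reached the filter only through the shPAX2 libraries, so its log2 fold change of 0.99 (SE 0.21) is a description with no test.

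**Figure D5:**
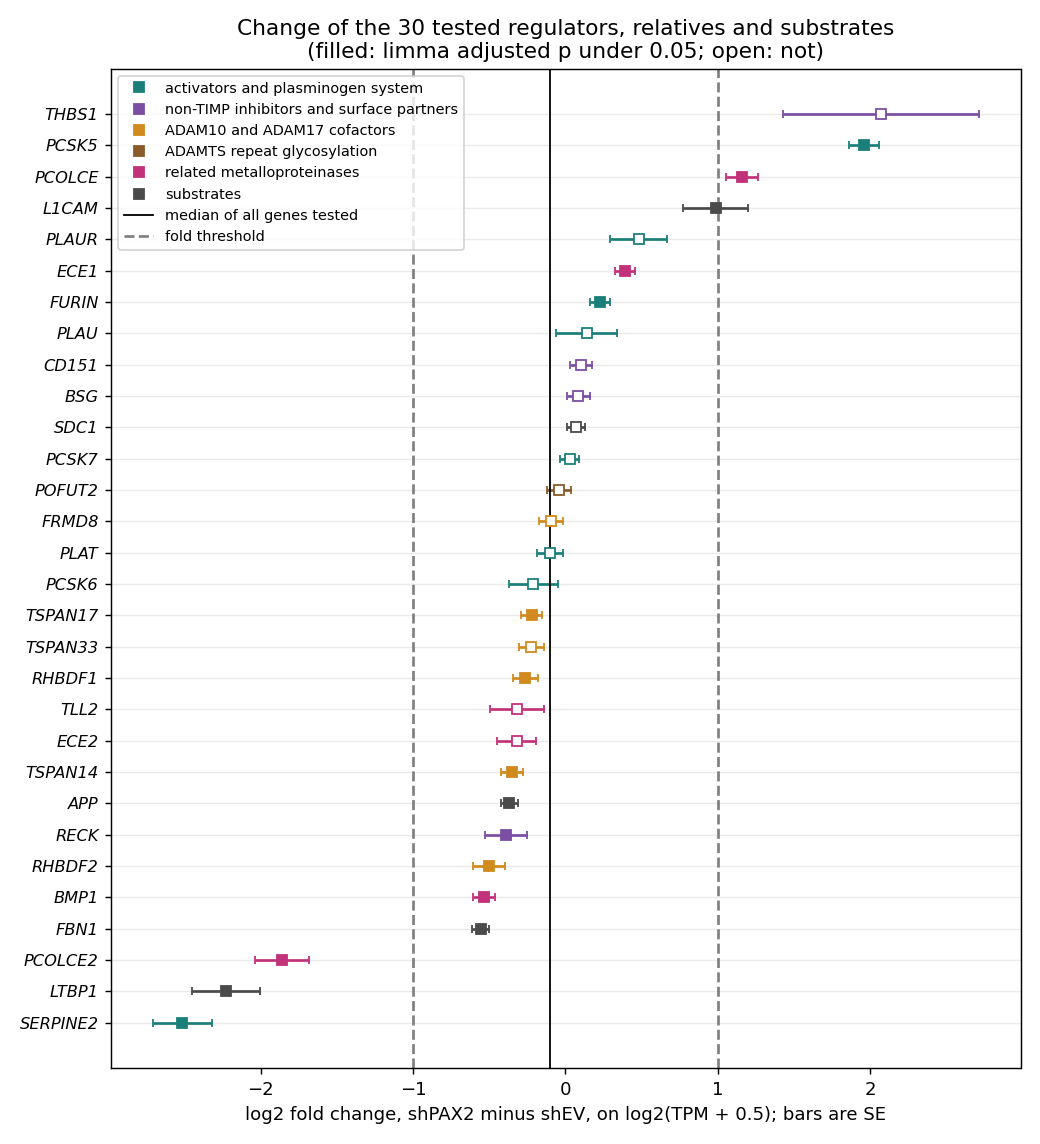
Log2 fold change of the 30 tested regulators, relatives and substrates, shPAX2 minus shEV on log2(TPM + 0.5), with SE bars, filled where the limma adjusted p was under 0.05 and coloured by list. *PCSK5* and *PCOLCE* lie above the upper fold threshold and *SERPINE2*, *LTBP1* and *PCOLCE2* below the lower, while *THBS1* at 2.07 is open.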

How the data were processed

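RNA-Seq was performed on 6 libraries of AN3CA cells, 3 per group, made with a stranded total RNA kit per the labels. The authors deposited TPM values for genes named by symbol. The submitters' processing notes name bcl2fastq, STAR, Subread, featureCounts, edgeR and hg19, and versions, annotation and the strand setting of the counting are not given in the sources used here. Reads of a gene and of a partner on the opposite strand may therefore be mixed. The study's methods describe RSEM for another line.

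Within each gene the TPM ratios between libraries were ratios of whole numbers (100.0% of genes, relative deviation under 1e-09), so reads were recovered up to a factor common to a gene's libraries. Simulated reads at these depths were returned exactly for 97.1% of 3873 genes. Pooled read ratios carry exact binomial 95% intervals, which cover counting error only, as reads have no molecular identifiers. The floor was 3 reads.

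Genes with at least 0.5 TPM in at least 3 libraries were tested with limma 3.58.1 in R 4.3.3 (lmFit, eBayes with trend and robust, two-sided) on log2(TPM + 0.5), 3 shPAX2 against 3 shEV, and p-values were adjusted by Benjamini-Hochberg over 13163 genes. The fit was tested on simulated data. Named genes were the TIMPs, *MMP2*, *MMP14*, *ADAM10*, *ADAM17*, members past the threshold or with a mean of at least 5 TPM, list genes past the threshold, and low members with no overlap between groups. Any other gene was named with its values known. The members and lists were chosen with earlier results of these data known, and 1 list gene is not reported here. In all, 16 alternatives were planned and 7 were added after seeing the data (other pseudocounts, filters, scalings and thresholds, voom, the replicate block, each library left out). Positions are from GENCODE 44 on GRCh37, the build of the files, which matched all 55 members, and promoters are from RefSeq on GRCh38.p14.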

Additional observations from a re-analysis of the deposited data

How the results depend on the processing

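The number of members past the threshold was 9. It was 5 with 1 TPM added in place of 0.5, which shrinks the change of low genes (*MMP24*, *TIMP3*, *ADAMTS6* and *ADAMTS2* then missed the fold threshold), and it ran from 4 to 8 when 1 library was left out, lowest without shPAX2 replicate 2 (5) and shPAX2 replicate 3 (4). *MMP1*, *MMP10* and *MMP24* cannot pass a filter of 3 libraries once a shPAX2 library is gone. With the filter at 2 libraries, chosen after seeing the data, the leave-one-out counts ran from 7 to 10. The number of members at an adjusted p under 0.05 (18), of all genes past the threshold (598) and of list genes at an adjusted p under 0.05 (16) stayed within 1.5 times of these values under all alternatives run. These totals hide the split, since members higher at an adjusted p under 0.05 fell from 9 to between 3 and 7 when 1 library was left out, while members lower stayed at 9 or 10. Genes higher fell from 1612 to 975 without shPAX2 replicate 2. Over the genes of the naming rule, 18 values lost their call, all of them *TIMP3* or *MMP10*, 3 gained one (*TIMP2* or *MMP11*), and no called value changed sign.

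At an adjusted p threshold of 0.01, 7 members passed. Replicate numbers gave no pairing, since deviations of same-numbered libraries correlated at -0.0523, 0.0815 and 0.0014. With the replicate block, 8 members passed the threshold (5 higher and 3 lower), 15 members had an adjusted p under 0.05, *MMP10* had an adjusted p of 0.0633 by limma, and *MMP17* (0.0574) and *ADAMTS15* (0.0888) also lost their calls. Depth limits the 27 members under the filter, 16 of which had at most 10 reads in all.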
